A study of Mus musculus with 8 samples.

Results

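The 44 genes described here act in the G2 phase of the cell cycle and in mitosis. They were taken by symbol from a list that was drawn up with earlier results of these data known, and are 44 of the 23432 gene symbols in each count table. Polyadenylated RNA was sequenced from mouse skin epithelium in 8 libraries, 2 for each of 4 groups. At embryonic stage E16.5, K14-H2BGFP+ cells, in which the Krt14 promoter drives a fusion of histone H2B with green fluorescent protein, were sorted from dissociated back skin of control embryos and of MOF cKO embryos (MOF fl/fl with Krt14-Cre), after dead cells had been gated out with DAPI. At postnatal stage P0.5, whole epidermis of control pups and of Kansl1 cKO pups (Kansl1 fl/fl with Krt14-Cre) was separated from the dermis with Dispase and lysed unsorted. MOF, listed under its symbol Kat8, is the acetyltransferase of histone H4 lysine 16, and KANSL1 is a subunit of NSL, a complex in which MOF also works. Krt14-Cre deletes the floxed alleles in the epithelium alone, the Kansl1 allele loses exon 3, and the controls were wild-type or heterozygous littermates on a mixed C57Bl/6J and CD-1 background, of both sexes.

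Entry into mitosis is driven by cyclin-dependent kinase 1 bound to cyclin A and cyclin B and switched on by CDC25 phosphatases. Aurora and Polo kinases, kinesin motors, condensin and the kinetochore then build the spindle and hold the chromosomes, and a checkpoint restrains the anaphase-promoting complex until every chromosome is attached. In the epidermis these genes are known to be used mostly by dividing cells of the basal layer, and differentiating spinous and granular cells turn them off. Their transcription late in the cycle is known to run through the MuvB complex with B-MYB and FOXM1, and p53 through p21 represses many of them.

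Each library held between 9108709 and 27561688 counts on genes, with 22484018 or more in each E16.5 library and at most 19774643 in each P0.5 library. All 44 genes passed the filter on low counts in every comparison, and the lowest count of any of them was 45. Levels are given as CPM, the count of a gene per 1000000 counts after edgeR's TMM scaling, and values are scaled within each comparison. Krt5, a keratin of basal keratinocytes, ran from 16380 to 21610 CPM in the E16.5 libraries and from 8398 to 9251 CPM in those of P0.5. Kat8 was at 14.5 and 14.7 CPM in control and at 12.5 and 13.9 CPM in MOF cKO (log2 fold change -0.14, adjusted p = 0.554 by edgeR's quasi-likelihood test), and Kansl1 was at 40.7 and 48.2 CPM in control and at 31.4 and 30.6 CPM in Kansl1 cKO (log2 fold change -0.52, adjusted p = 0.242). Counts over a whole gene do not separate a deleted part from the rest, so neither value checks the genotype labels. Nothing in the labels ties a library to a separate animal, so the p-values measure the spread between these libraries. In bulk RNA, fewer cells of a type cannot be told apart from less RNA in each cell.

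Promoter sequence was examined for the motifs through which these genes are known to be regulated. RefSeq windows on GRCm38.p6, from 250 bases before to 50 bases after a transcription start, were found for 37 of the 44 genes, and some genes have more than 1 start, giving 40 windows. Ccna2, Cdc25c, Tpx2, Aurkb, Dlgap5, Smc4 and Cdca2 had none. The cell cycle genes homology region (CHR), searched as TTTGAA or its complement TTCAAA, was in 70% of these windows against 17.9% of all 32851 windows. Counted only from 100 bases before to 50 bases after the start, it was in 62.5% against 8.01%. The CCAAT box, searched as CCAAT or ATTGG and known as the site of NF-Y, was in 77.5% against 37.4%, and an E2F-like motif, searched on both strands as TTTNNCGC, was in 10% against 5.17%. The windows of the 44 genes also had more G and C (median 59% against 52.7%), and 2 of their 119 motif matches overlapped another. A match describes letters in a window and does not show that a factor binds there.

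The sequences that follow are stretches of 30 bases around a CHR, with the CHR in capitals, read 5′ to 3′ on the gene's strand. The first 4 belong to genes that fell in MOF cKO, and the last 3 to genes whose values in MOF cKO lay above both controls, so that the same motif can be seen on both sides. In the order given they lie at chr9:70421533-70421562 (minus strand), chr1:189688067-189688096 (minus), chr19:34922353-34922382 (plus), chr4:52439235-52439264 (plus), chr4:118437344-118437373 (minus), chr7:131560315-131560344 (plus) and chr2:164769888-164769917 (plus).
Ccnb2: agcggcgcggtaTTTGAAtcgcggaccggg
Cenpf: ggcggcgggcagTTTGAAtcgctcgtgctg
Kif20b: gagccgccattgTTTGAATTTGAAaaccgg
Smc2: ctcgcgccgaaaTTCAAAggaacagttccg
Cdc20: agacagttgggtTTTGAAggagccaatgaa
Bub3: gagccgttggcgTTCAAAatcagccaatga
Ube2c: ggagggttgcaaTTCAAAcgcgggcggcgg
Kif20b carries the motif 2 times in direct succession, starting 8 and 14 bases after the start. In Ccnb2 the CHR shown starts 5 bases after the transcription start and in Cenpf 3 bases after it. In Cdc20, Ube2c and Bub3 it starts 18, 29 and 43 bases before the start. Genes not shown here went the other way. Aurka (log2 fold change 0.29 in MOF cKO) and Plk1 (0.04) have a CHR 33 and 31 bases after the start. Kif11 (-0.26) and Top2a (-0.36) have one 19 and 23 bases before it.

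The bases just before the start show the CCAAT boxes. The 100 bases before the Ccnb2 start (chr9:70421555-70421654, minus strand) hold 3 of them at even spacing, at 87, 54 and 21 bases before the start. The 100 bases before a Gtse1 start (chr15:85859607-85859706, plus strand) hold 2 whole boxes and the first letters of another that runs across the start, and no CHR was found in either Gtse1 window. Capitals mark the CCAAT boxes in both.
Ccnb2: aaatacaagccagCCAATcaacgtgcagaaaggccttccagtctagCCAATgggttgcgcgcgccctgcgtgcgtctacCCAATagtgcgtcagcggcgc
Gtse1: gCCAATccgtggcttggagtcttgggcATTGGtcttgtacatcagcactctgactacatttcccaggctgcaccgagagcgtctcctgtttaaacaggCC

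**Figure D1:**
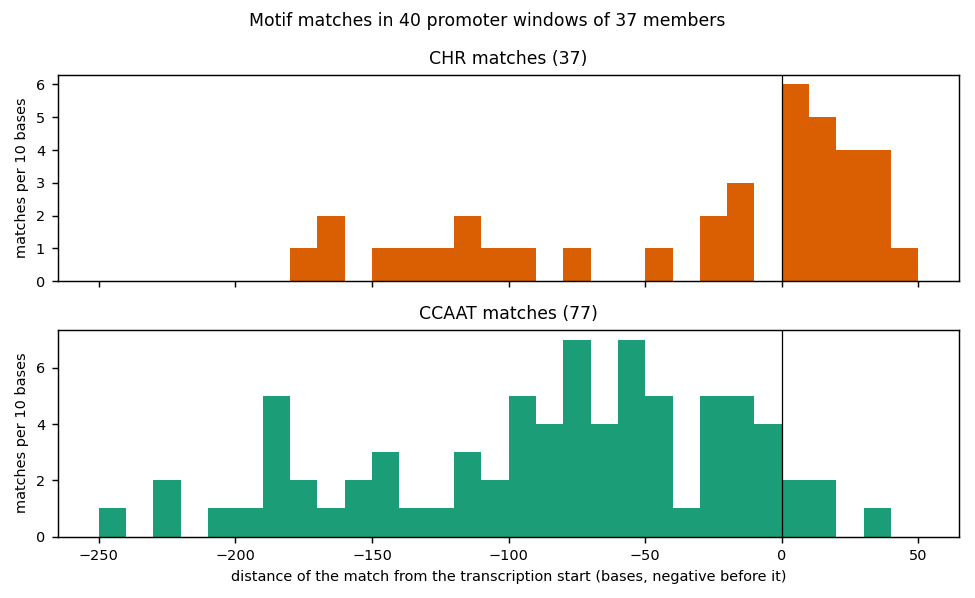
Number of motif matches per 10 bases (vertical axis) by distance from the transcription start in bases (horizontal axis, negative before the start), for the CHR (top) and the CCAAT box (bottom) in 40 windows of 37 genes. Of 37 CHR matches, 28 lie from 100 bases before to 50 bases after the start, and of 77 CCAAT matches, 52 do. Where windows of 1 gene overlap, a match is counted in each.

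In MOF cKO epithelium at E16.5, 8 of the 44 genes fell and 1 rose. The genes that fell encode CDC25C and cyclin B2, which switch on entry into mitosis, the kinetochore proteins CENPF, NUF2 and BUB1, the spindle proteins KIF20B and DLGAP5, and the condensin subunit SMC2. Their log2 fold changes ran from -0.97 to -0.66, falls of between 36.5% and 49.0%. Gtse1 rose, with a log2 fold change of 1.28. A gene was called when edgeR's quasi-likelihood test gave a Benjamini-Hochberg adjusted p of 0.01 or lower, over all 13956 genes tested, together with a fold change over 1.5. By that rule 9.59% of all genes fell and 10% rose, against 18.2% and 2.27% of the 44 genes. Across the 44 genes, 35 log2 fold changes were below 0 and the median was -0.28, against -0.02 for all genes. At an unadjusted p under 0.05, 22 of the 44 genes were lower (25.1% of all genes) and 5 were higher (23.7% of all genes). Both MOF cKO libraries lay below both controls for 28 of the 44 genes (37.7% of all genes) and above both for 6 (34.9% of all genes), and the other 10 overlapped.

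**Figure D2:**
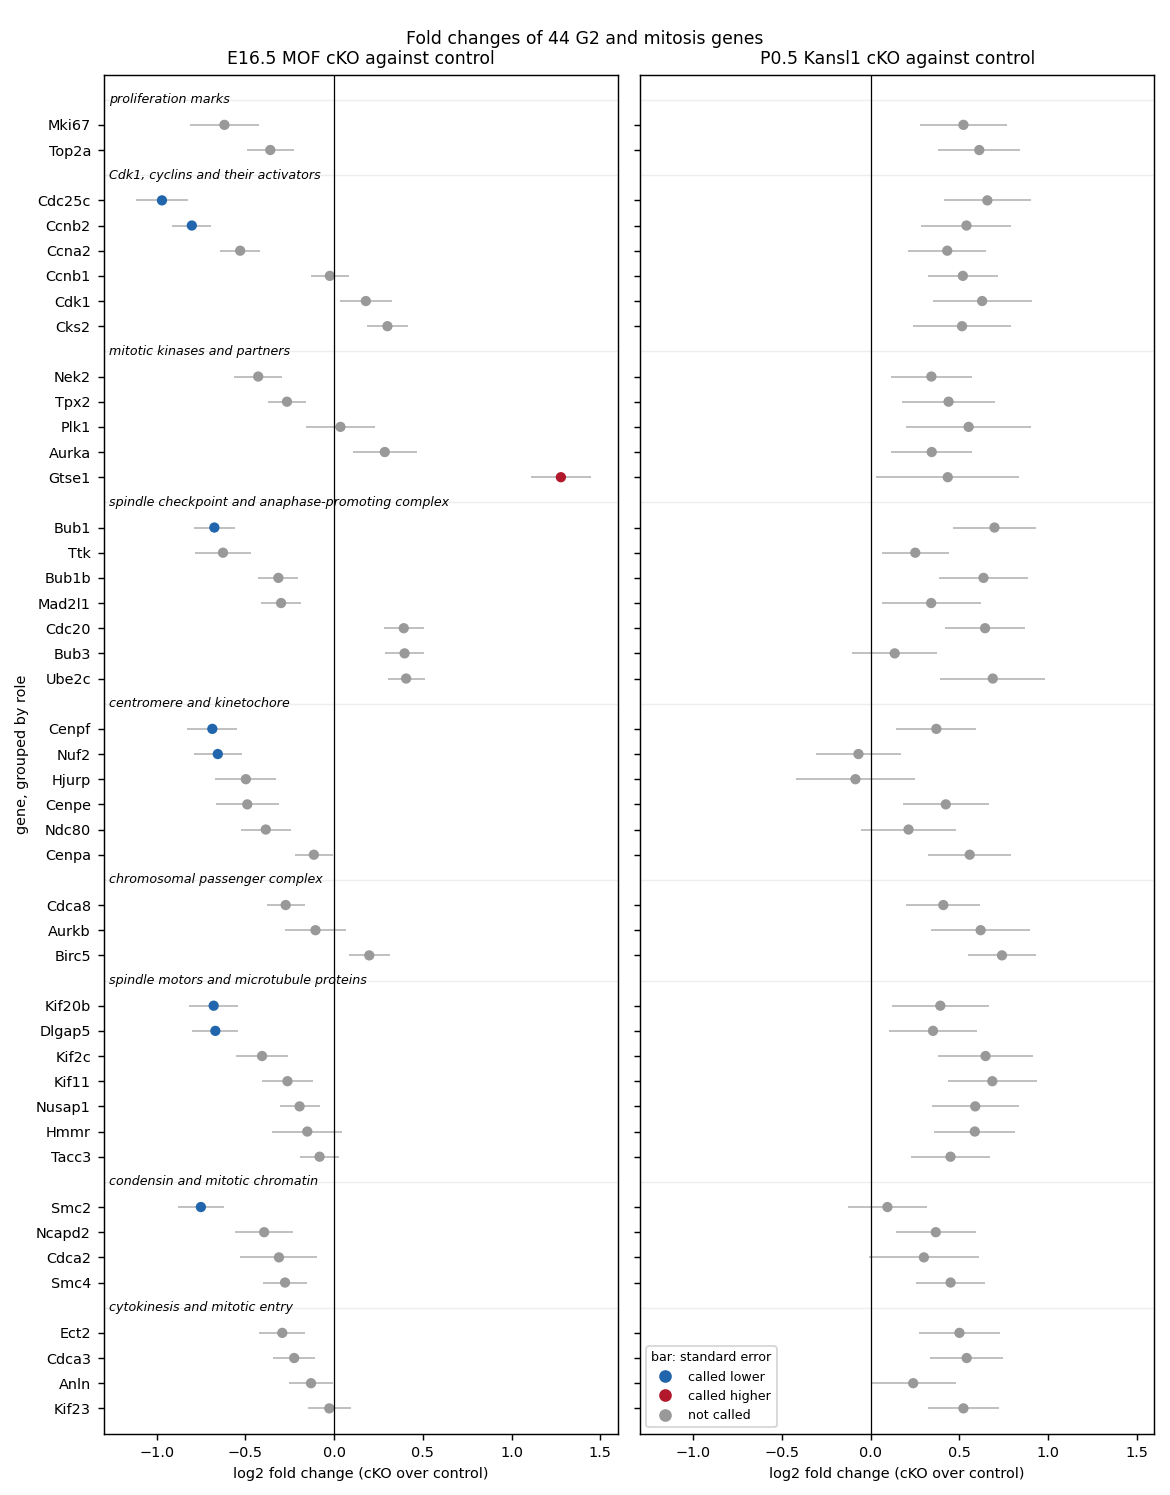
log2 fold change of cKO over control with its standard error (bars) for each of 44 genes, grouped by role, in MOF cKO at E16.5 (left) and Kansl1 cKO at P0.5 (right). Blue marks the 8 genes called lower and red the 1 called higher in MOF cKO, grey marks genes not called. In MOF cKO the values spread from -0.97 to 1.28, and in Kansl1 cKO 42 of 44 lie above 0 with none called.

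Among the genes of Cdk1, its cyclins and activators, 2 of 6 fell and none rose. Cdc25c, the phosphatase that removes the inhibitory phosphates of CDK1, was at 35.3 and 34.2 CPM in control and at 16.6 and 18.8 CPM in MOF cKO. It had the lowest change of the 44 genes (log2 fold change -0.97, standard error 0.146, adjusted p = 0.00253). Ccnb2, cyclin B2, was at 93.1 and 97.5 CPM in control and at 54.7 and 54.6 CPM in MOF cKO, so that the libraries of each genotype lay close together and far from the other genotype (log2 fold change -0.80, standard error 0.110, adjusted p = 0.00179). Ccnb1, cyclin B1, which took the most counts in the group, behaved otherwise. Its values of 166 and 170.3 CPM in control and 156.1 and 174.4 CPM in MOF cKO overlapped (log2 fold change -0.02, standard error 0.106, adjusted p = 0.873). Ccna2, cyclin A2, was at 126.9 and 114.7 CPM in control and at 81.2 and 86.1 CPM in MOF cKO. With an adjusted p of 0.00942 it missed a call through its size alone (log2 fold change -0.53). Cdk1 itself overlapped, at 119.8 and 111 CPM in control against 113.2 and 148 CPM in MOF cKO (log2 fold change 0.18, adjusted p = 0.361). Cks2, a small protein that docks CDK1 to its substrates, was at 89.4 and 78.7 CPM in control and at 101.4 and 105.5 CPM in MOF cKO (log2 fold change 0.30, adjusted p = 0.0764). Ccnb1 and Ccnb2 each have a named pseudogene, which could take or lend reads.

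Mki67 and Top2a, the proliferation marks, had both MOF cKO libraries below both controls and were not called. Mki67, the antigen Ki67, stood at 635.8 and 440.8 CPM in control and at 393.9 and 307.4 CPM in MOF cKO. The gap between its control libraries was larger than the gap between the lower control and the higher MOF cKO library, and the gene was not called (log2 fold change -0.62, standard error 0.193, adjusted p = 0.0394). DESeq2, which was run as an alternative test, called Mki67 lower (log2 fold change -0.59, adjusted p = 0.00291) beside the same 8 genes, against 12.4% of all genes. Top2a, the topoisomerase that untangles sister chromatids, was at 579.8 and 454.6 CPM in control and at 394 and 411.7 CPM in MOF cKO (log2 fold change -0.36, adjusted p = 0.069).

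The spindle checkpoint and anaphase-promoting complex genes were split in MOF cKO. Bub1, the checkpoint kinase at the kinetochore, was at 68.1 and 64.3 CPM in control and at 40.5 and 42.5 CPM in MOF cKO, and it fell (log2 fold change -0.68, standard error 0.115, adjusted p = 0.00406). Ttk, the kinase MPS1 that starts checkpoint signalling, was also below both controls, at 40 and 32 CPM against 22.4 and 24.3 CPM, and was not called (log2 fold change -0.63, adjusted p = 0.0193). On the other side stood Cdc20, Ube2c and Bub3. Cdc20, the activator of the anaphase-promoting complex, was at 167.2 and 162.3 CPM in control and at 200.4 and 232 CPM in MOF cKO (log2 fold change 0.39, adjusted p = 0.029). Ube2c, the E2 enzyme of that complex, was at 126.2 and 114.8 CPM in control and at 157.7 and 161.5 CPM in MOF cKO (log2 fold change 0.41, adjusted p = 0.0199). Bub3, which holds BUB1 and BUBR1 at the kinetochore, was at 127.9 and 115.6 CPM in control and at 152.6 and 168 CPM in MOF cKO (log2 fold change 0.40, adjusted p = 0.0269). All 3 lay above both controls in both MOF cKO libraries, and none of them was called. Bub1b and Mad2l1, which form the checkpoint's inhibitor with BUB3, had log2 fold changes of -0.31 (adjusted p = 0.0633) and -0.30 (adjusted p = 0.0675). Ube2c overlaps Tnnc2, Cdc20 overlaps Elovl1 and Bub3 overlaps Fgfr2 on the opposite strand, and whether counting used strand is not given in the sources used here.

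All 6 centromere and kinetochore genes had log2 fold changes below 0 in MOF cKO, with a median of -0.49, and 2 were called. Cenpf, a large kinetochore protein made in G2, was at 161.8 and 133.2 CPM in control and at 99.5 and 83.9 CPM in MOF cKO (log2 fold change -0.69, standard error 0.140, adjusted p = 0.00824). Nuf2 was at 42.9 and 40.9 CPM in control and at 24.9 and 28.2 CPM in MOF cKO (log2 fold change -0.66, standard error 0.135, adjusted p = 0.00861). Ndc80, whose product pairs with NUF2 to grip microtubules, had a log2 fold change of -0.39 (adjusted p = 0.0657), with both MOF cKO libraries below both controls. Cenpa, the histone H3 variant of the centromere, was nearest to 0 in this group (log2 fold change -0.11, adjusted p = 0.425), and Hjurp, the chaperone that loads it, was at -0.50 (adjusted p = 0.0553).

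The spindle and chromosome genes held 3 more calls. Kif20b, a kinesin of late mitosis, was at 59.4 and 51.4 CPM in control and at 36.7 and 32.5 CPM in MOF cKO (log2 fold change -0.68, standard error 0.137, adjusted p = 0.0079). Dlgap5, a microtubule protein of the spindle also called HURP, was at 45.1 and 49.9 CPM in control and at 30.8 and 28.9 CPM in MOF cKO (log2 fold change -0.67, standard error 0.130, adjusted p = 0.00676). All 7 genes of the spindle motor and microtubule group were below 0, and Kif11, the motor gene with the most counts, had a log2 fold change of -0.26 (adjusted p = 0.186). Smc2, a core ATPase of condensin, was at 145.6 and 120.9 CPM in control and at 83.5 and 74.8 CPM in MOF cKO (log2 fold change -0.75, standard error 0.131, adjusted p = 0.0045). Its partner in the condensin ring, Smc4, was below both controls and was not called (log2 fold change -0.28, adjusted p = 0.119), and Ncapd2, which took the most counts of the condensin group, was at -0.39 (adjusted p = 0.0953). None of the 3 chromosomal passenger genes and none of the 4 cytokinesis and mitotic entry genes was called. In the first of these groups the values were -0.27 for Cdca8, -0.11 for the kinase gene Aurkb and 0.20 for Birc5, the gene of survivin, and in the second they ran from -0.29 for Ect2 to -0.03 for Kif23, with Anln, which took the most counts, at -0.13.

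Gtse1 went against the other called genes. It encodes a microtubule protein of G2 and mitosis that is known as a target of p53 and as a regulator of p53. Its levels were 38.6 and 44.4 CPM in control and 85.2 and 116 CPM in MOF cKO, with no overlap and with a wider gap between the MOF cKO libraries than between the controls (log2 fold change 1.28, standard error 0.170, adjusted p = 0.00161). The other mitotic kinases and partners were not called, at 0.04 for Plk1, 0.29 for Aurka, -0.27 for Tpx2, the activator of Aurora A, and -0.43 for Nek2.

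**Figure D3:**
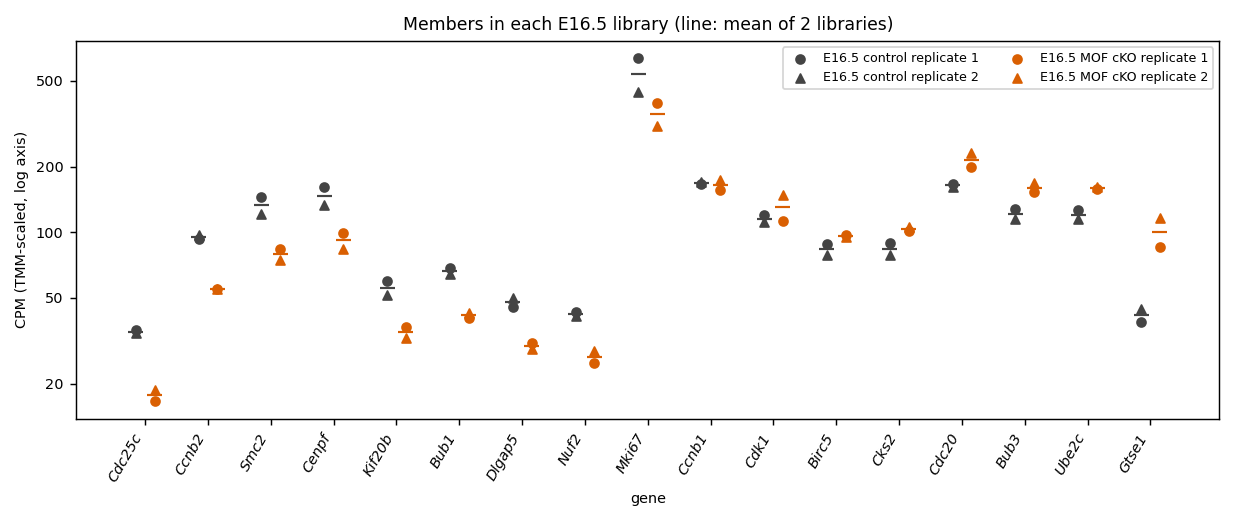
CPM on a log axis for 17 of the 44 genes in each E16.5 library, control in dark grey and MOF cKO in orange, with circles for replicate 1, triangles for replicate 2 and lines at the mean of 2 libraries. The 8 genes called lower stand at the left with no overlap between genotypes, Ccnb1 and Cdk1 overlap, Ube2c, Bub3 and Cdc20 lie above both controls, and Gtse1 at the right was called higher.

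Removing single libraries changed which genes were called. Without control replicate 1, 3 of the 44 genes were called lower (8.68% of all genes) and their median moved to -0.21. The count was 4 without MOF cKO replicate 1 (8.55% of all genes), 4 without MOF cKO replicate 2 (9.29% of all genes) and 9 without control replicate 2 (8.54% of all genes). In the first 3 of these fits the share of the 44 genes called lower was near or under that of all genes. Cdc25c and Ccnb2 were called lower and Gtse1 higher with any 1 library left out, while Cenpf, Smc2 and Bub1 were called in 2 and Nuf2, Kif20b and Dlgap5 in 1 of these 4 fits, in which a lone library is assumed to vary like the other group. In a fit of all 8 libraries with a shared spread, the count was 1 lower, Cdc25c (9.07% of all genes), and 0 higher (9.18% of all genes). A test against a fold of 1.5 called none of them (3.05% of all genes lower and 3.6% higher). Scaling by library size alone moved the median of all genes from -0.02 to -0.32 and that of the 44 genes to -0.59, with 20 lower and 1 higher, while all genes went from 1338 lower and 1395 higher to 2743 lower and 769 higher. Under that scaling Cks2 (-0.00), Birc5 (-0.11), Aurka (-0.02), Cdk1 (-0.12) and Plk1 (-0.27) turned to the other side of 0, while Ube2c, Bub3 and Cdc20 stayed above 0 at between 0.09 and 0.10.

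Other genes of the same machinery were counted from a fixed list. Of 109 other mitosis genes, 9 fell and 1 rose, with a median of -0.31 and 82 below 0. As shares of the list, both counts were under the 9.59% and 10% of all genes called in those directions. The steepest falls were in Kntc1, a kinetochore protein of the checkpoint, at 77.6 and 74.2 CPM in control and 34 and 28.4 CPM in MOF cKO (log2 fold change -1.28, adjusted p = 0.000745), and in Spc24, a subunit of the NDC80 complex, at 55.3 and 53.1 against 20.9 and 25.1 CPM (log2 fold change -1.24, adjusted p = 0.00096). Nsl1, of the MIS12 kinetochore complex, and Anapc10, of the anaphase-promoting complex, fell as well, by 1.02 and 1.16 on the log2 scale. Psrc1, a microtubule protein also known as a p53 target, rose from 41 and 42.1 CPM to 99.1 and 137.2 CPM (log2 fold change 1.51, adjusted p = 0.000867). Prc1 (-0.24) and Incenp (0.12), of the central spindle and the passenger complex, were not called.

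Of 31 regulators of these genes, 4 were lower and 4 higher with a median of 0.08, shares near the 9.59% and 10% of all genes. Cdkn1a, the gene of the CDK inhibitor p21, was at 88.4 and 126 CPM in control and at 437.9 and 611.2 CPM in MOF cKO (log2 fold change 2.29, standard error 0.217, adjusted p = 0.000602). Trp53, the gene of p53, rose from 274.3 and 272.2 CPM to 593.5 and 594.7 CPM (log2 fold change 1.12, adjusted p = 0.000491). Of the antiproliferative genes Sfn, Gadd45a, Btg2 and Rprm in the same list, Sfn (1.23) and Gadd45a (1.16) rose too. Btg2 and Rprm were not called. Among activators, Mybl2, the gene of B-MYB, was at 65 and 57.3 CPM in control and 41.1 and 38 CPM in MOF cKO, and it fell (log2 fold change -0.63, adjusted p = 0.00781). Foxm1 was below both controls, at 149.8 and 116.7 CPM against 87.7 and 90.7 CPM, and was not called (log2 fold change -0.58, adjusted p = 0.0154). Tfdp2, a partner of E2F factors, fell from 51.2 and 43.7 CPM to 9.09 and 8.72 CPM (log2 fold change -2.41, adjusted p = 0.000229). Rbl2, the pocket protein p130 of the repressive DREAM complex, fell from 43.9 and 36.3 CPM to 14.4 CPM in both MOF cKO libraries (log2 fold change -1.48, adjusted p = 0.000775), as did the MuvB subunit gene Lin52 (log2 fold change -1.32, adjusted p = 0.00906). Wee1, the kinase that opposes CDC25C, was at -0.11 (adjusted p = 0.474).

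Values in MOF cKO are given next by features of the genes themselves. The 24 genes with a CHR from 100 bases before to 50 bases after the start had a median log2 fold change of -0.27 with 4 lower, and the 13 genes with a window but no such match had a median of -0.30 with 2 lower and 1 higher. Longer genes tended to have lower values. Across the 44 genes, Spearman's rho between log2 fold change and the length of all annotated exons was -0.41, against -0.09 across 13126 genes, and between log2 fold change and mean level it was 0.37. The genes share the same 4 libraries, so these values describe the libraries and carry no test. The 22 longer genes had a median of -0.34 and 5 calls lower, and the 22 shorter a median of -0.15 with 3 lower and 1 higher.

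Per kilobase of annotated exon, the levels in E16.5 control were highest for Cks2 (121.5 ± 10.9 CPM per kb, SD, n = 2), Cdc20 (88.2 ± 1.83), Ccnb2 (62.2 ± 2.03) and Ncapd2 (60.1 ± 11.4), and the last of these differed from Ccnb2, Top2a (57.4 ± 9.82) and Mki67 (53.5 ± 13.7) by less than its own spread. The lowest were Hjurp (4.63 ± 0.607) and Ndc80 (5.41 ± 0.321). In MOF cKO Ccnb2 stood at 35.7 ± 0.0173 CPM per kb, below Ncapd2 at 45.7 ± 7.24. The exon length joins all annotated transcripts of a gene, and genes with long minor transcripts are set too low by it.

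Markers of other cell states moved with the MOF genotype. The summed level of 6 spinous keratinocyte markers was 4228 and 3416 CPM in control and 9242 and 10130 CPM in MOF cKO, and 5 of the 6 rose, Krt1 and Krt10 among them. The sum of 8 basal markers was 37690 and 35960 CPM in control and 31590 and 38820 CPM in MOF cKO, so the genotypes overlapped. Of these 8 markers 1 fell, Krt15, and 6 were below 0, with a median log2 fold change of -0.16. Hair germ markers summed to 528.6 and 716.5 CPM in control and to 302.8 and 292.4 CPM in MOF cKO, with 3 of 7 lower, and macrophage markers to 21.3 and 47.3 CPM against 103.8 and 140 CPM, with 6 of 13 higher. Sums of 8 dermal fibroblast markers overlapped, at 1778 to 2278 CPM in control and 2214 to 2666 CPM in MOF cKO, while their median log2 fold change was 1.03 with 6 of 8 above 0 and none called. Endothelial markers summed to 6.16 and 7.22 CPM against 10.8 and 22.3 CPM with 1 of 5 higher, granular markers to 11.1 and 11.6 CPM against 25 and 27.1 CPM with 1 of 5 higher, and T cell, melanocyte, erythroid and muscle markers, with none called, to at most 74.3 CPM in any library. The part of these cells in the changes of the 44 genes was not tested.

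In Kansl1 cKO epidermis at P0.5, none of the 44 genes was called, and nearly all had values above 0. edgeR's quasi-likelihood test called 0 of 13031 genes in each direction (0% of all genes), and DESeq2 called 0 of the 44 genes against 0.506% of all genes lower and 0.269% higher. The median log2 fold change of the 44 genes was 0.48, against 0.01 for all genes, and 42 were above 0. At an unadjusted p under 0.05, 14 of the 44 genes were higher (7.43% of all genes) and 0 were lower (8.26% of all genes). Both Kansl1 cKO libraries lay above both controls for 26 of the 44 genes (26% of all genes), below both for 0 (22.7% of all genes), and the groups overlapped for 18. The smallest adjusted p among the 44 genes was 0.206.

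The values at P0.5 followed single libraries. Control replicate 1 was the lowest library for 41 of the 44 genes and Kansl1 cKO replicate 1 the highest for 43. These were also the shallowest and the deepest P0.5 libraries, with 9108709 and 19774643 counts on genes. Control replicate 2 held 14327981 and Kansl1 cKO replicate 2 held 13712311. The part of depth in this order was not tested. The summed level of the 44 genes was 1748 and 2454 CPM in control and 3369 and 2511 CPM in Kansl1 cKO, so that control replicate 2 and Kansl1 cKO replicate 2 stood next to each other. Leaving out control replicate 1 moved the median of the 44 genes to 0.26, and leaving out Kansl1 cKO replicate 1 moved it to 0.24. Without control replicate 2 it was 0.72, and without Kansl1 cKO replicate 2 it was 0.67. None of these fits called any of the 44 genes.

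**Figure D4:**
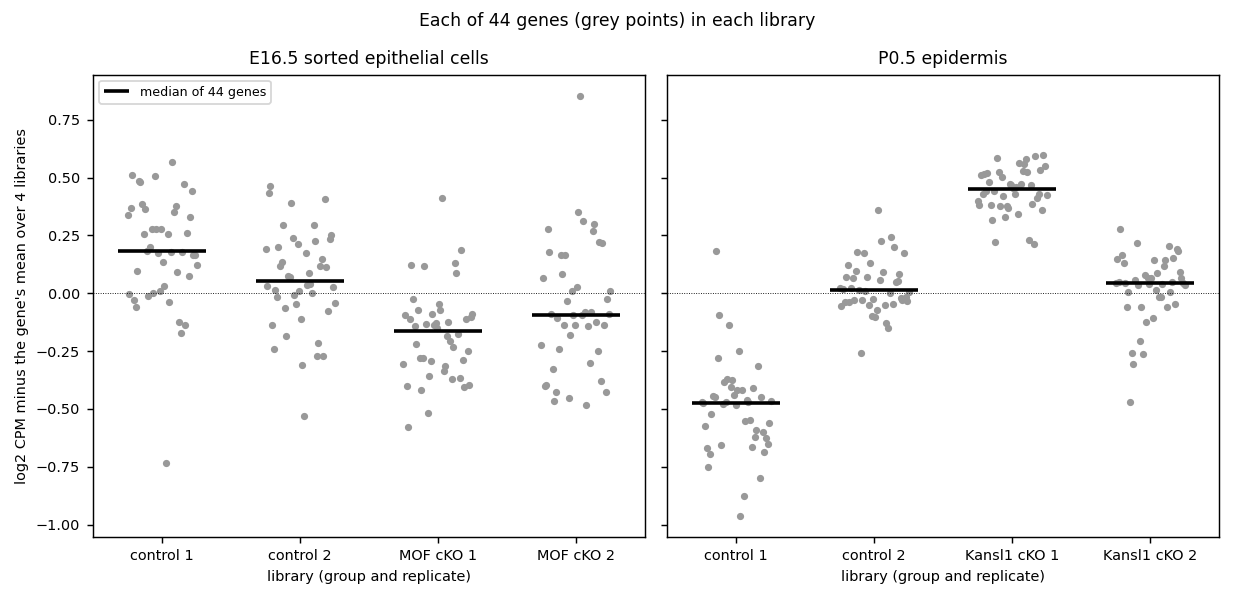
log2 CPM of each of 44 genes (grey points) in each library, relative to that gene's mean over the 4 libraries of its stage, with the median of the genes as a line, for E16.5 (left) and P0.5 (right). At P0.5 the medians are -0.47 and 0.01 in control and 0.45 and 0.05 in Kansl1 cKO, while at E16.5 they are 0.18 and 0.05 in the controls, with -0.16 and -0.09 in the MOF cKO libraries.

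Birc5, the gene of survivin, a chromosomal passenger protein, had the highest log2 fold change in Kansl1 cKO. Its levels were 20.7 and 24.2 CPM in control and 41.6 and 33.6 CPM in Kansl1 cKO (log2 fold change 0.74, standard error 0.190, adjusted p = 0.206). Bub1 was next, at 14.4 and 19 CPM in control and 31.5 and 22.9 CPM in Kansl1 cKO (log2 fold change 0.70, adjusted p = 0.25), followed by Ube2c at 23.1 and 41.8 CPM against 60.6 and 44.7 CPM (log2 fold change 0.69, adjusted p = 0.328). Mki67 was at 186.8 and 247.9 CPM in control and at 371 and 254 CPM in Kansl1 cKO, so its second replicates lay almost level (log2 fold change 0.52, adjusted p = 0.357). Top2a was at 168.1 and 213.3 CPM against 343.4 and 240 CPM (log2 fold change 0.61, adjusted p = 0.286). The lowest values were those of Hjurp (-0.09), Nuf2 (-0.07) and Smc2 (0.10), whose libraries overlapped between the groups.

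The role groups had similar medians at P0.5. They ran from 0.29 for the centromere and kinetochore genes and 0.33 for the condensin genes to 0.62 for the passenger complex and 0.64 for the checkpoint group. The gene with the most counts in each group was above 0, with 0.52 for Ccnb1, 0.44 for Tpx2, 0.65 for Cdc20, 0.37 for Cenpf, 0.69 for Kif11, 0.45 for Smc4 and 0.52 for Kif23, and none of them was called. Gtse1, which rose in MOF cKO, was at 5.16 and 12.9 CPM in control and 13.8 and 11.1 CPM in Kansl1 cKO, and overlapped (log2 fold change 0.44, standard error 0.402). Among 109 other mitosis genes none was called, with a median of 0.33 and 87 above 0, and among 30 tested regulators none was called, with Cdkn1a at -0.46 (adjusted p = 0.511), Foxm1 at 0.35, Mybl2 at 0.46, Wee1 at 0.27, Incenp at 0.47 and Prc1 at 0.42.

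Spinous and granular marker sums at P0.5 overlapped between the genotypes, as did those of dermal fibroblast, T cell and erythroid markers. The fibroblast markers still had a median log2 fold change of -1.56, with 6 of 8 below 0. Basal markers summed to 18700 and 19750 CPM in control and to 18080 and 17810 CPM in Kansl1 cKO. Of these 8 markers 6 were below 0, with a median of -0.04. Endothelial markers summed to 6.65 and 4.01 CPM against 3.44 and 2.92 CPM. Spinous markers summed to 73480 and 41480 CPM in control and to 44440 and 69650 CPM in Kansl1 cKO, and granular markers to 14830 and 9351 CPM against 6552 and 17620 CPM. Kansl1 cKO replicate 1, with the highest values of the 44 genes, had the lowest granular sum. In control replicate 1, with the lowest values, the spinous sum was highest. The highest granular sum was in Kansl1 cKO replicate 2 and the lowest spinous sum in control replicate 2. Neither the spinous nor the granular sum ran in the exact reverse order of the 44 genes over these libraries, and the relation was not tested. Control replicate 1 also held 168.6 CPM of muscle markers, against 1.66 to 3.62 CPM in the other libraries. Melanocyte markers summed to 464.4 and 517 CPM in control and to 994.4 and 1121 CPM in Kansl1 cKO. Macrophage markers stood at 202.6 and 238.7 CPM in control against 305.1 and 325 CPM in Kansl1 cKO, with 11 of 13 above 0, and hair germ markers at 250.6 and 313 CPM against 431 and 318.9 CPM, with 7 of 7 above 0 and a median log2 fold change of 0.50. None of these markers was called. The part of these cells in the values of the 44 genes was not tested.

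The difference between both genotype effects was itself tested, as the MOF effect minus the Kansl1 effect in a fit of all 8 libraries. The effects share no library, but stage, isolation and sequencing go with them and cannot be told apart from the gene deleted. edgeR's quasi-likelihood test called none of the 44 genes in either direction, against 1.17% of 14565 genes lower and 1.76% higher. The differences were below 0 for 42 of the 44 genes, with a median of -0.76 against -0.07 for all genes, and 27 had an unadjusted p under 0.05 with the MOF effect lower (16.4% of all genes) and 0 with it higher (14.8% of all genes). The 3 most negative were Cdc25c (-1.66, standard error 0.305, adjusted p = 0.0114), Bub1 (-1.40, adjusted p = 0.0141) and Ccnb2 (-1.37, adjusted p = 0.0201), and DESeq2 called these 3 lower (3.57% of all genes) and 0 higher (6.7% of all genes). Mki67 was at -1.17 (adjusted p = 0.0539) and Top2a at -1.004 (adjusted p = 0.0484). Gtse1 (0.83, standard error 0.467, adjusted p = 0.262) and Bub3 (0.23, adjusted p = 0.631) were the 2 genes above 0. The median was -0.56 without P0.5 control replicate 1 and -0.53 without Kansl1 cKO replicate 1, and -1.06 without P0.5 control replicate 2.

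Between stages, the G2 and mitosis genes were higher in E16.5 control than in P0.5 control. Of the 44 genes, 31 were higher at E16.5 (17.6% of 13859 genes tested) and 0 were lower (22.2% of all genes). The median log2 fold change was 0.999, against 0.01 for all genes, and 43 were above 0. Both E16.5 libraries lay above both P0.5 libraries for 41 of the 44 genes (40.9% of all genes), and 3 overlapped. P0.5 control replicate 1 was the lowest library for 43 of the 44 genes. The median was 0.76 without that library and 1.28 without P0.5 control replicate 2. DESeq2 called 34 genes higher (18.1% of all genes), adding Cdk1, Cenpf and Mad2l1, whose edgeR values were 0.79, 0.76 and 0.86 with adjusted p of 0.0226, 0.0109 and 0.0147. These control libraries are the ones used in the genotype comparisons. Stage, sorting and sequencing differ together and cannot be told apart, and markers of differentiation and of other cell types moved with them. Spinous markers summed to 4000 and 3239 CPM at E16.5 and to 88270 and 49280 CPM at P0.5, granular markers to 10.5 and 11 CPM against 17810 and 11110 CPM, and basal markers to 35660 and 34090 CPM against 22470 and 23470 CPM. Macrophage markers were lower at E16.5 too, at 20.2 and 44.9 CPM against 243.3 and 283.6 CPM (12 of 13 called lower). So were melanocyte markers, at 14.2 and 44.9 CPM against 557.8 and 614.2 CPM (6 of 6 called lower). Hair germ sums were higher at E16.5, at 500.1 and 679.3 CPM against 301 and 371.9 CPM (3 of 7 called higher). T cell sums were higher as well, at 55.9 and 39.7 CPM against 25.3 and 11.1 CPM, although 2 of 3 tested genes were called lower. Muscle sums were lower at E16.5, at 0.71 and 1.71 CPM against 202.5 and 4.30 CPM (2 of 3 tested genes called lower). Dermal fibroblast and endothelial sums overlapped. The part of cell composition in these differences was not tested.

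The centromere gene Hjurp differed most, at 8.81 and 7.53 CPM in P0.5 control and 39.9 and 33.2 CPM in E16.5 control (log2 fold change 2.17, standard error 0.214, adjusted p = 0.000114). All 3 chromosomal passenger genes were higher, with Cdca8 rising from 24.8 and 31.3 CPM to 109 and 100.1 CPM (log2 fold change 1.89, adjusted p = 6.86e-05), Aurkb at 1.66 and Birc5 at 1.56. Gtse1 was at 6.19 and 15.3 CPM at P0.5 and 36.5 and 42.1 CPM at E16.5 (log2 fold change 1.83, adjusted p = 0.00278). All 5 mitotic kinases and partners were higher, with log2 fold changes from 1.04 for Nek2 and 1.08 for Tpx2 through 1.19 for Plk1 and 1.31 for Aurka to that of Gtse1. The checkpoint group held 4 such genes, Bub1 (1.64), Ube2c (1.54), Bub1b (1.43) and Cdc20 (0.999).

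Mki67 was at 224.3 and 294.5 CPM at P0.5 and at 601.5 and 417.9 CPM at E16.5 (log2 fold change 0.97, adjusted p = 0.00642), and Top2a at 201.9 and 253.5 CPM against 548.6 and 430.9 CPM (log2 fold change 1.10, adjusted p = 0.00174). In the Cdk1 group Ccnb2 (1.35), Cks2 (1.19), Cdc25c (1.05) and Ccna2 (0.86) were higher, and Ccnb1 was not called, at 89.5 and 118.2 CPM against 157 and 161.4 CPM (log2 fold change 0.61, adjusted p = 0.014). In the remaining groups the called genes were Ncapd2 (1.499), Cdca2 (1.28), Smc2 (0.69), Tacc3 (1.17), Kif11 (0.999), Kif2c (0.90), Nuf2 (1.02), Cenpa (1.01), and all 4 cytokinesis and mitotic entry genes, Ect2 (0.96), Anln (0.91), Cdca3 (0.89) and Kif23 (0.86). The smallest differences were in Ttk (-0.01), Ndc80 (0.15) and Nusap1 (0.29), a microtubule bundling protein, and the libraries of both stages overlapped for these 3. Ttk was at 30.1 and 38.4 CPM at P0.5 and 37.9 and 30.3 CPM at E16.5, although its checkpoint partner Bub1 was among the genes that differed most.

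**Figure D5:**
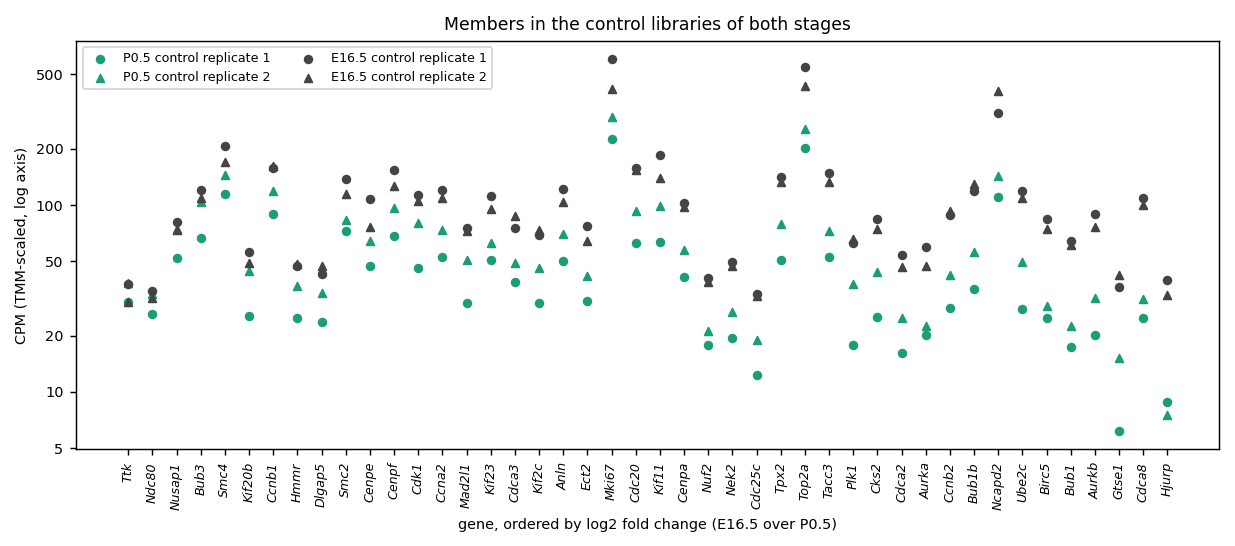
CPM on a log axis of each of the 44 genes in the control libraries of P0.5 (green) and E16.5 (dark grey), with circles for replicate 1 and triangles for replicate 2, ordered from the smallest to the largest log2 fold change of E16.5 over P0.5. The stages overlap for Ttk, Ndc80 and Nusap1 at the left, and are farthest apart for Hjurp at the right, with a log2 fold change of 2.17.

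Of 109 other mitosis genes, 45 were higher at E16.5 and 2 were lower, with a median of 0.72, and 17 of 31 regulators were higher and 2 lower. By the same rule 17.6% of all genes were higher and 22.2% lower. Mybl2 was at 8.67 and 12 CPM at P0.5 and 61.5 and 54.3 CPM at E16.5 (log2 fold change 2.47, adjusted p = 5.25e-05), and Foxm1 at 27.4 and 39.3 CPM against 141.7 and 110.6 CPM (log2 fold change 1.91, adjusted p = 0.000206). The repressor gene E2f7 (2.32) and the checkpoint gene Kntc1 (2.11) were higher as well, as were the antiproliferative genes Btg2 (1.93) and Rprm (3.81, at 0.275 and 0.0768 CPM against 2.04 and 2.40 CPM). Incenp (1.597) and Prc1 (1.06) were higher, Wee1 was not called (0.24), and Cdkn1a was lower at E16.5, at 83.7 and 119.4 CPM against 314.9 and 217 CPM (log2 fold change -1.39, adjusted p = 0.00149).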

How the data were processed

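The authors deposited 1 table per library of HTSeq output, a raw read count for each gene. The submitters' processing notes list TopHat2, HTSeq and mm10, and the study's methods name HISAT2 as the aligner. The annotation and strand setting of the counting are not given in the sources used here. Entries naming no gene (21.1% to 26.0% of a library) were left out. At these depths 1 count was 0.0326 to 0.115 CPM in the genotype comparisons. The libraries were compared in R 4.3.3 with edgeR 4.0.16 (filterByExpr, TMM, quasi-likelihood test, Benjamini-Hochberg over all genes), checked on simulated counts, with DESeq2 1.42.0 as an alternative. The study's thresholds were kept, 0.01 for the adjusted p and 1.5 for the fold. The 44 genes, the lists and the markers were chosen with earlier results of these data known. Named are all genes called by either tool, Mki67 and Top2a, the gene with the most counts in each role, the 3 lowest and 3 highest fold changes, and of other lists the 5 largest called changes and 6 fixed genes. The others, such as Ndc80 in MOF cKO and Bub1b, were named after their values were seen. Coordinates and exon lengths came from GENCODE M21 and promoters from RefSeq GRCm38.p6. Alternatives are in the closing section. Flg, Adgre1, Trdc, Hbb-bt and Hbb-bs were not analysed here.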

Additional observations from a re-analysis of the deposited data

How the results depend on the processing

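The counts and medians of the 44 genes were recomputed with DESeq2, other edgeR tests, scalings, filters and thresholds, the replicate block, a fit of all 8 libraries and each library left out. In MOF cKO the 8 genes called lower became 0 against a fold of 1.5, 20 by library size alone (median -0.59) and 1 over 8 libraries, and the 1 called higher became 0 against a fold of 1.5 and over 8 libraries; with a library left out the lower count ran from 3 to 9 and the median from -0.33 to -0.21. All genes went from 1338 lower and 1395 higher to 426 and 502 against a fold of 1.5, and to 2743 and 769 by library size alone. For the difference between the genotype effects, none called lower (1.17% of all genes) became 3 with DESeq2 (3.57%), 5 with a likelihood ratio test (5.5%), 5 with every counted gene (2.92%) and 8 at an adjusted p of 0.05 (6.76%), and 0 to 2 with a library left out. Between stages, 31 higher (17.6% of all genes) became 12 against a fold of 1.5 (8.43% of all genes). The median became 1.44 by library size alone, where all genes had a median of 0.47. With a library left out it ran from 0.76 to 1.28. The cause of these shifts was not tested. In Kansl1 cKO no alternative called any of the 44 genes, and the median ran from 0.24 to 0.72 with a library left out.

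The titles number the replicates of each group 1 and 2. Deviations of same-numbered libraries from their group means correlated at 0.21 for MOF cKO and -0.20 for Kansl1 cKO over all genes, and the labels do not say that a number marks a litter, so whether the numbers pair the libraries is not known. With the replicate block, 10 genes were lower and 1 higher in MOF cKO, Mki67 and Ttk being added, while all genes rose to 2263 lower (16.2%) and 1903 higher (13.6%); 0 were called in Kansl1 cKO and 0 in the difference of the effects. With 2 libraries a group, precision is limited. A log2 fold change in Kansl1 cKO had a standard error of 0.190 to 0.402, against 0.105 to 0.217 in MOF cKO.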
